A study of Citrus maxima with 12 samples.

Results

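Pomelo (Citrus maxima) carries a group of genes whose transcripts were lower in diseased than in control fruit of the cultivar Taoxi, while diseased fruit of the cultivars Jinlan and Jinsha held them near or above the Taoxi control level. There were 38 such genes among the 32863 gene IDs of the deposited table. They were chosen on log2(mean FPKM + 1), where FPKM counts the fragments of a gene per kilobase of its length, scaled to the fragments of the library. A member was an ID starting with Cg that stood at a mean of 3 FPKM or more in Taoxi controls 2 and 3, fell by 0.8 log2 units or more in diseased Taoxi, and lay above -0.4 log2 units, relative to those controls, in diseased Jinlan and in diseased Jinsha. The fall in diseased Taoxi and the lower bound in the other cultivars are therefore properties of the choice, and their values below are descriptions.

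RNA of fruit was sequenced in 12 libraries for a study of black spot, a disease of Jinggang honey pomelo. Taoxi had a control and a diseased group, while Jinlan and Jinsha each had a diseased group, and every group had 3 libraries. The labels give cultivar, tissue and treatment, and name no time after infection, no tree and no fruit for a library. No control fruit of Jinlan or Jinsha was analysed here, so the level of a gene in those cultivars is set against Taoxi control fruit, and "lowered" has a meaning in Taoxi alone.

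Black spot diseases of citrus leave dark marks on the rind, and fruit is the tissue sequenced here. Infected plant tissue commonly shifts its transcripts from growth and primary metabolism towards defence. Whether the members belong to such a shift was not tested. Cultivars can differ in the resting level of a gene as well as in its response, and a comparison of diseased fruit between cultivars holds both. The table pairs no ID with a gene name or description and no sequence was used here, so no function is given for any gene. In bulk tissue, fewer cells of a type and less RNA per cell cannot be told apart.

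Taoxi control 1 was not used to choose the genes, because it stood apart. Across the 17362 IDs tested, its log2(FPKM + 1) values correlated with those of diseased Jinlan at a mean r of 0.975 and with those of the other Taoxi controls at 0.890. Its mean r was 0.960 with diseased Jinsha and 0.911 with diseased Taoxi. For Taoxi controls 2 and 3 the r was 0.843 and 0.838 with diseased Jinlan, and 0.836 and 0.826 with diseased Jinsha. The values of Taoxi control 1 for the members are given beside the others, and the tests were run without it and again with it. The sum of FPKM ranged from 560349 to 577783 per library, and the read depth behind the values is unknown.

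The members were a small share of the genes that fell in diseased Taoxi. Of 12401 Cg IDs at 3 FPKM or more in the Taoxi controls, 334 (2.69%) fell by 0.8 log2 units or more. Among those 334, 250 were low in diseased Jinlan and in diseased Jinsha as well, 24 were low in Jinlan but not in Jinsha, 22 were low in Jinsha but not in Jinlan, and 38 (11.4%) were low in neither. The threshold on the fall lay in a dense range: with the other conditions kept, 91 IDs fell by at least 0.6 log2 units and 16 by at least 1.0. Just inside it, Cg7g014840 differed by -0.81 log2 units, from 7.2 and 6.4 FPKM in Taoxi controls 2 and 3 to 2.83, 3.78 and 3.74 FPKM in diseased Taoxi. Just outside it, Cg3g021750 differed by -0.79 log2 units, from 5.21 and 5.58 FPKM to 2.73, 2.31 and 3.05 FPKM.

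**Figure D1:**
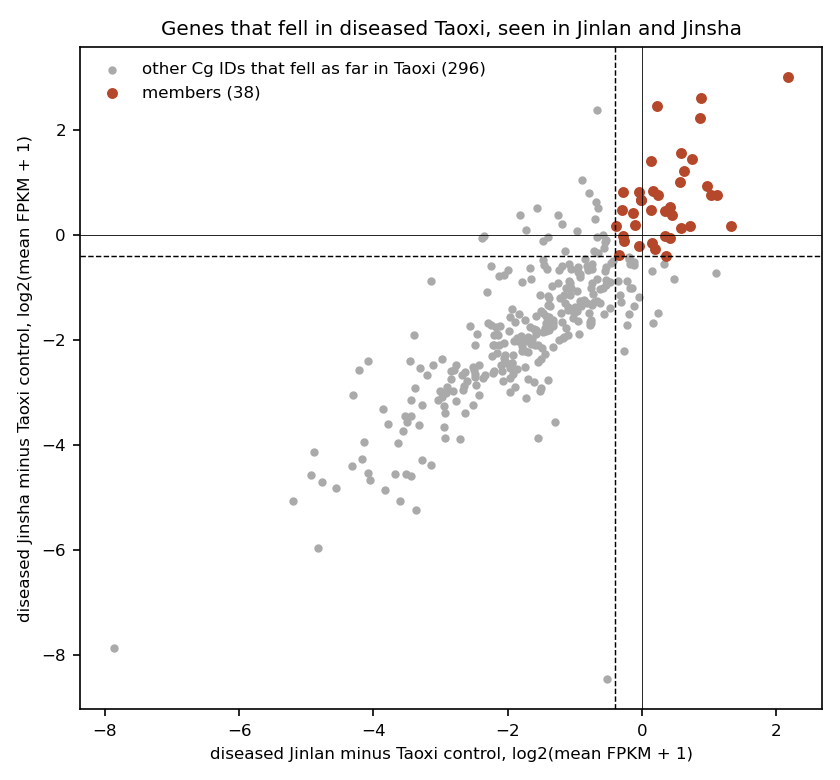
Cg IDs that fell by 0.8 log2 units or more in diseased Taoxi, placed by diseased Jinlan (x axis) and diseased Jinsha (y axis) minus the Taoxi control, in log2(mean FPKM + 1). The 38 members (red) lie right of and above the dashed lines at -0.4, and each of the 296 other IDs (grey) lies left of or below at least 1 of them.

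All 38 members had their 3 diseased Taoxi libraries below both Taoxi controls 2 and 3, where 21.3% of all IDs tested did. That separation follows from the choice. The fall had a median of -0.98 log2 units (range -1.96 to -0.81). Diseased fruit held 29 members at 50% or less of the control mean and 3 at 25% or less. All 3 diseased libraries showed it: relative to the mean of controls 2 and 3, the members' median was -1.22 log2 units in diseased Taoxi 1, -1.06 in diseased Taoxi 2 and -0.95 in diseased Taoxi 3. Diseased Taoxi 1 was the lowest of its group for 19 of the 38 members, against 44.4% of all IDs tested. All 38 passed the test of diseased against control Taoxi as lower (limma, adjusted p below 0.05), where 11.1% of all IDs tested did. Fitted on the Taoxi libraries without the other cultivars, 30 of the 38 passed. Nothing is read from either count.

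**Figure D2:**
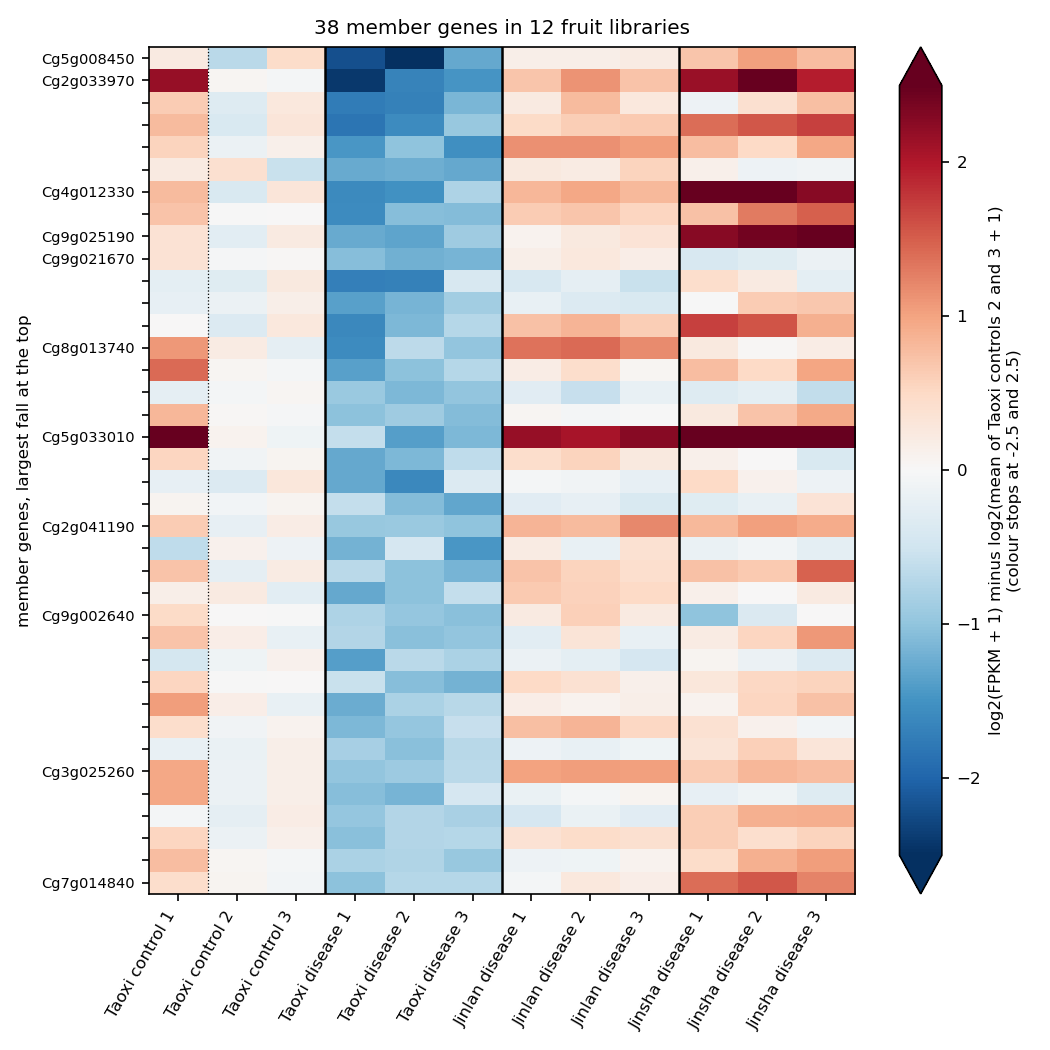
Each row is a member, ordered by its fall in diseased Taoxi, and each column a library. Colour gives log2(FPKM + 1) minus the log2 of the mean of Taoxi controls 2 and 3 (plus 1), from blue (lower) to red (higher). The 3 diseased Taoxi columns are blue throughout, and Taoxi control 1, left of the dotted line, is red in most rows.

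Levels spread over a wide range. In the Taoxi controls 16 members stood under 10 FPKM, 18 between 10 and 100 FPKM and 4 at 100 FPKM or more. Replicates were tightest in diseased Jinlan, with a median coefficient of variation of 8.81% over the members, against 17.3% in diseased Jinsha and 26.5% in diseased Taoxi, where levels were lowest. Between Taoxi controls 2 and 3 the median was 15.3%.

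On the log2(mean FPKM + 1) scale the largest fall was that of Cg5g008450, at -1.96. Taoxi control 2 held 47.4 FPKM, Taoxi control 3 held 104 FPKM, and diseased Taoxi held 15.7, 9.79 and 30.8 FPKM, so its mean dropped to 24.8% of the control mean. The groups did not overlap, but the controls lay further apart in FPKM than the lower of them lay above the diseased mean. Fitted on the Taoxi libraries without the other cultivars, its difference missed the threshold (limma adjusted p = 0.0547; 0.00313 in the fit of 11 libraries). Taoxi control 1 had 88.5 FPKM, within the range of the other controls. Diseased Jinlan held 84.5, 83.7 and 87.0 FPKM and diseased Jinsha 123, 155 and 130 FPKM, above every Taoxi disease library.

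Cg2g033970 was next on that scale, at -1.80. The order depends on the scale: with a pseudocount of 0.1 the fitted falls were -2.16 for Cg2g033970 and -2.06 for Cg5g008450, and relative to the control mean the lowest member was CgUng000260, at 22.5%. For Cg2g033970, Taoxi controls 2 and 3 were close, at 13.5 and 12.5 FPKM. Diseased Taoxi stood at 1.62, 3.42 and 4.05 FPKM, with a mean at 23.3% of the control mean. Taoxi control 1 was at 62.2 FPKM, 4.78 times that mean. Diseased Jinlan stood at 21.6, 29.4 and 22.0 FPKM and diseased Jinsha at 61.8, 78.8 and 53.6 FPKM, so the level in Taoxi control 1 was that of diseased Jinsha and not of the other Taoxi controls.

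The most abundant member was Cg3g025260. Taoxi controls 2 and 3 held 677 and 827 FPKM of it, against 377, 399 and 473 FPKM in diseased Taoxi. Diseased Jinlan held it at 1506, 1562 and 1529 FPKM and diseased Jinsha at 1161, 1341 and 1293 FPKM. Both cultivars were thus above Taoxi controls 2 and 3 and all diseased Taoxi libraries. Taoxi control 1, at 1473 FPKM, lay between the cultivars and within the range of neither.

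Cg9g021670 was the next most abundant and, with Taoxi control 1 left out, had replicates close together in every group. Its values were 193 and 202 FPKM in Taoxi controls 2 and 3, and it stood at 94.3, 84.8 and 88.1 FPKM in diseased Taoxi, at 220, 237 and 222 FPKM in diseased Jinlan and at 150, 161 and 178 FPKM in diseased Jinsha. Diseased Jinsha lay below both Taoxi controls in all 3 libraries and above all diseased Taoxi libraries. Taoxi control 1 was the highest library, at 255 FPKM.

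**Figure D3:**
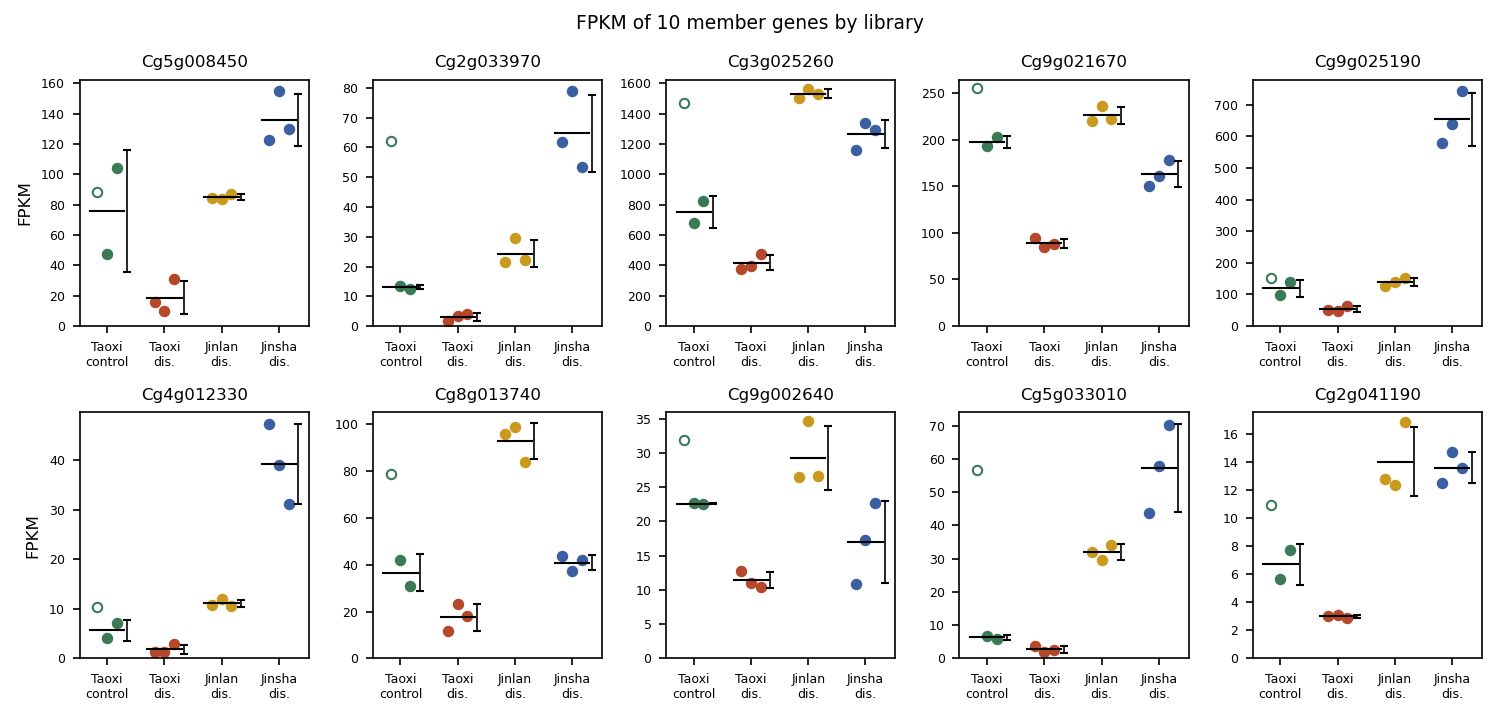
FPKM of 10 members in each library (y axis from 0, own scale per gene), by group. Lines are group means and bars the SD; the open circle is Taoxi control 1, which enters neither. In each panel the diseased Taoxi points lie lowest, except for Cg9g002640, where a Jinsha library falls among them.

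The other cultivars held the members at levels that ran from just under the Taoxi control to several times above it. The rule bounds these levels from below and leaves them free above. Diseased Jinlan stood above both Taoxi controls 2 and 3 in all 3 libraries for 19 members (50%), where 51.6% of all IDs tested did, and diseased Jinsha for 21 members (55.3%), where 45.4% did. The median difference from the Taoxi control was 0.29 log2 units in Jinlan (range -0.38 to 2.18; 0.20 over all IDs tested) and 0.51 in Jinsha (range -0.40 to 3.0; 0.08 over all IDs tested). These comparisons share the Taoxi control libraries with the rule. All IDs tested carry no lower bound, so part of the members' higher medians follows from the choice.

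With a band of 0.4 log2 units either side of the Taoxi control, the members fell into 4 patterns. In 10 members both cultivars stayed within the band. In 11 members both stood above it, with medians of 0.86 log2 units in Jinlan and 1.21 in Jinsha. Jinsha alone stood above it in 12 members, with a median of 0.71 log2 units against 0.06 in Jinlan. Jinlan alone stood above it in 5 members, with a median of 0.58 log2 units against 0.16 in Jinsha. The split varied with the scaling and the control. With median-ratio scaling 17 members stood above the band in neither cultivar and 2 above it in Jinlan alone. With Taoxi control 1 in the control mean 18 stood above it in neither cultivar and 5 above it in both. Of the members, 31 still met the rule under that scaling and 32 with that control mean. The counts of 17 and 18 set no lower bound, so they can include members below the band. Without Taoxi control 2 or without Taoxi control 3, 3 stood above it in Jinlan alone. Median falls in diseased Taoxi were alike over the patterns, from -1.11 log2 units where both cultivars were higher to -0.91 where Jinsha alone was.

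Highest above the Taoxi control in both cultivars was Cg5g033010. Taoxi controls 2 and 3 held 6.78 and 5.78 FPKM and diseased Taoxi 3.84, 1.79 and 2.36 FPKM. Diseased Jinlan held 32.1, 29.5 and 34.2 FPKM, 5.09 times the control mean, and diseased Jinsha 43.7, 57.9 and 70.2 FPKM, 9.12 times that mean. On the log2 scale its fall in diseased Taoxi was -0.99, and its differences from the Taoxi control were 2.18 in Jinlan and 3.0 in Jinsha. Taoxi control 1 was at 56.7 FPKM, 9.03 times the mean of the other controls and within the range of diseased Jinsha, and with that control included the Taoxi difference missed the threshold (limma adjusted p = 0.088).

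Cg2g041190 stood above the Taoxi control by 0.96 log2 units in Jinlan and 0.92 in Jinsha. Taoxi controls 2 and 3 held 5.68 and 7.75 FPKM, and the gene stood at 3.01, 3.08 and 2.86 FPKM in diseased Taoxi, at 12.8, 12.4 and 16.9 FPKM in diseased Jinlan and at 12.5, 14.7 and 13.6 FPKM in diseased Jinsha. The libraries of Jinlan and Jinsha overlapped. Their difference was 0.03 ± 0.13 log2 units (SE, limma adjusted p = 0.861), and Taoxi control 1, at 10.9 FPKM, lay between the other controls and these groups.

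A few members came close to the diseased Taoxi level in another cultivar. Diseased Jinlan overlapped diseased Taoxi for 1 member, Cg3g018120, where diseased Taoxi 3 was at 48.9 FPKM and the lowest Jinlan library at 43.7 FPKM. Diseased Jinsha overlapped it for 1 member, Cg9g002640, where diseased Jinsha 1 was at 10.8 FPKM and diseased Taoxi spanned 10.4 to 12.8 FPKM. For the other 37 members in each case, all 3 libraries of the cultivar lay above all 3 of diseased Taoxi, which 45.5% of all IDs tested did for Jinlan and 39.0% for Jinsha and which the rule all but fixes. All 3 diseased Jinlan libraries lay below both Taoxi controls for 4 members (Cg6g009500, Cg8g001380, Cg9g003330 and Cg3g022370), where 29.9% of all IDs tested did. All 3 diseased Jinsha libraries did for 2 (Cg9g021670 and Cg8g001380), where 36.5% of all IDs tested did. The rule keeps both counts low. Cg3g018120 and these IDs were named after their values were seen.

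The library that the rule left out was then read. Taoxi control 1 stood above all 3 diseased Taoxi libraries for 37 of the 38 members (97.4%), where 48.2% of all IDs tested did and 42.1% of the 292 other fallen IDs that were tested. The exception was Cg5g003220, named here for that reason, with 1.94 FPKM in Taoxi control 1 and 1.0, 2.43 and 0.673 FPKM in diseased Taoxi. Compared with Taoxi controls 2 and 3, control 1 was above both for 26 members (68.4%, against 54.0% of all IDs tested), between them for 7 and below both for 5. Its median difference from their mean was 0.53 log2 units over the members, 0.13 over all IDs tested and -1.07 over the 296 other fallen IDs.

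For the members as for all IDs, Taoxi control 1 lay nearest to diseased Jinlan. Over the members, the median size of its difference was 0.20 log2 units from diseased Jinlan, 0.40 from diseased Jinsha and 0.54 from the mean of Taoxi controls 2 and 3. The members were chosen to be higher in Jinlan and Jinsha than in diseased Taoxi. The other fallen IDs were, by the same choice, low in at least 1 of these cultivars. A library like Jinlan is therefore bound to differ between the 2 sets. The part of the likeness of Taoxi control 1 to Jinlan in its high values was not tested. Taoxi control 1 is a single library, and no test was made of it.

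**Figure D4:**
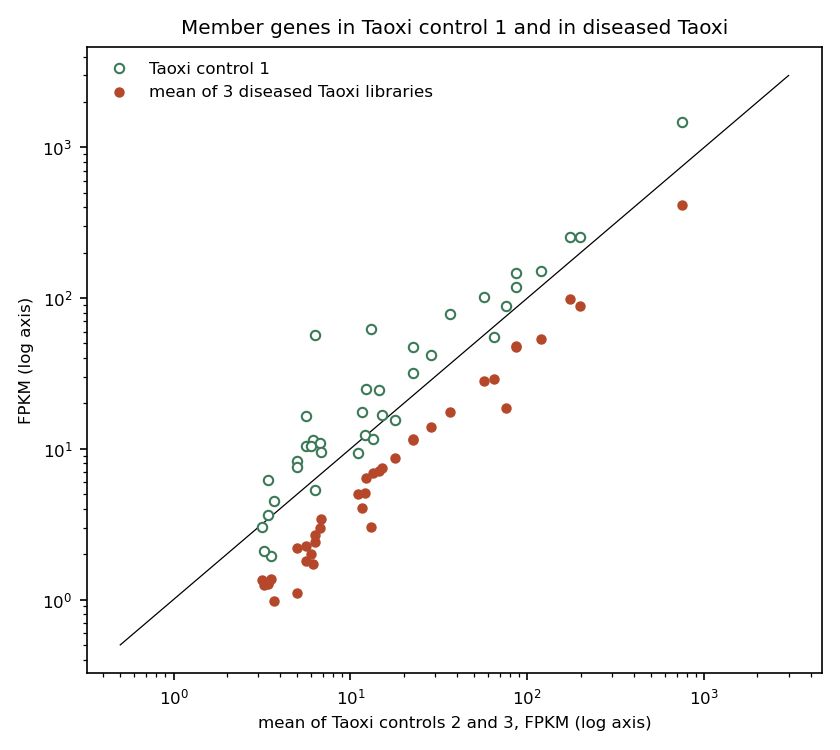
FPKM of each member in Taoxi control 1 (open circles) and as the mean of the 3 diseased Taoxi libraries (red), against the mean of Taoxi controls 2 and 3; both axes are logarithmic and the line marks equal values. Diseased Taoxi lies below the line for all members, and Taoxi control 1 above or near it for most.

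The difference between diseased Jinlan and diseased Jinsha was tested next. The rule used the mean of each cultivar, as a lower bound against the Taoxi control, but not the difference between them. More members were lower in Jinlan than higher: 14 of 38 passed as lower (36.8%), where 16.0% of all IDs tested did, and 6 passed as higher (15.8%), where 33.5% did (limma on log2(FPKM + 1), Benjamini-Hochberg adjusted p below 0.05 over 17362 IDs). The remaining 18 did not pass. The share that passed in either direction was 52.6%, against 49.5% of all IDs tested. The bounds of the rule can shift this balance, so the IDs that met the same bounds on level, Jinlan and Jinsha without being members are given beside it. Of these 8175 Cg IDs, 14.0% were lower and 32.2% higher in Jinlan. The median difference was -0.30 log2 units over the members, 0.10 over the IDs under the same bounds and 0.11 over all IDs tested. The comparison with the IDs under the same bounds was chosen after the data had been examined, and the difference between the sets was not tested.

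The balance held under another scaling, and the counts shrank with Taoxi control 1 in the fit. Median-ratio scaling, which moved the median of all IDs to 0.00, gave 15 members lower and 4 higher in Jinlan, against 22.5% and 21.4% of all IDs, with a members' median of -0.42 log2 units. With all 12 libraries 8 members were lower and 4 higher, against 8.01% and 17.0% of all IDs. Where a difference of 1 log2 unit was required as well, 5 members were lower (13.2%, against 3.40% of all IDs). On that requirement 1 member was higher (2.63%, against 1.76% of all IDs).

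**Figure D5:**
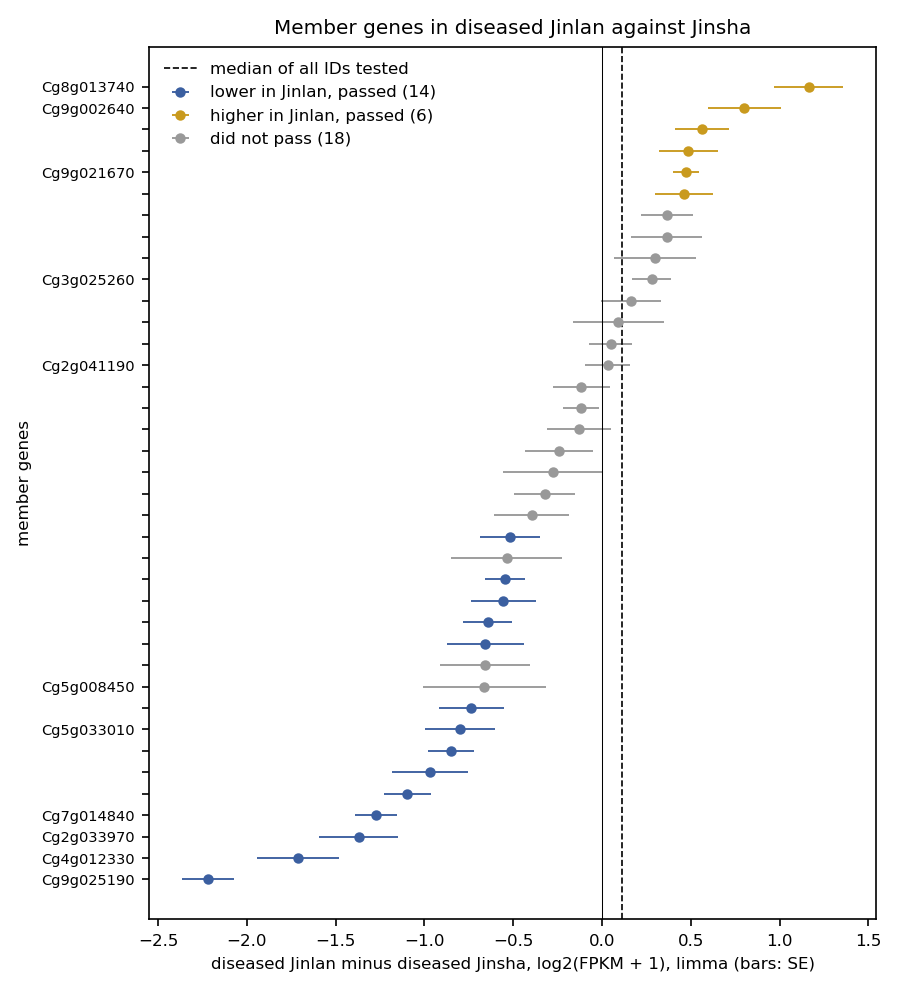
Difference between diseased Jinlan and diseased Jinsha in log2(FPKM + 1) for each member, with its standard error (limma, 11 libraries). The 14 members that passed as lower in Jinlan (blue) reach -2.22, the 6 that passed as higher (yellow) reach 1.16, and the dashed line marks the median of all IDs tested, 0.11.

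The largest difference was that of Cg9g025190. Diseased Jinsha held 579, 640 and 744 FPKM and diseased Jinlan 126, 141 and 152 FPKM. Jinlan thus stayed near the 99.1 and 139 FPKM of Taoxi controls 2 and 3 and the 152 FPKM of Taoxi control 1, while every Jinsha library was far above all others. The difference was -2.22 ± 0.15 log2 units in Jinlan against Jinsha (SE, limma adjusted p = 1.63e-06), and the Jinsha mean was 4.69 times the Jinlan mean. Diseased Taoxi stood at 49.4, 47.2 and 63.5 FPKM.

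Cg4g012330 followed the same order. Diseased Jinsha held 47.4, 39.0 and 31.2 FPKM, diseased Jinlan 10.8, 12 and 10.6 FPKM, Taoxi controls 2 and 3 held 4.11 and 7.13 FPKM and diseased Taoxi 1.21, 1.32 and 2.87 FPKM. None of these groups overlapped, and Taoxi control 1, at 10.5 FPKM, lay just under diseased Jinlan. The difference between Jinlan and Jinsha was -1.71 ± 0.23 log2 units (SE, limma adjusted p = 0.000156). Without Taoxi control 3 its difference within Taoxi missed the threshold (limma adjusted p = 0.0586).

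In the 14 members lower in Jinlan, Jinsha stood 0.41 to 3.0 log2 units above the Taoxi control (median 1.01), a direction that the lower bound on Jinlan and the size of the difference fix. Jinlan was above that control for 8 of them and below it for 6 (median 0.18). By pattern, 9 of the 14 were among the members that stood above the band in Jinsha alone and 5 among those above it in both cultivars. Over all 38 members, the libraries of the cultivars did not overlap for 15 lower in Jinlan (39.5%, against 20.3% of all IDs tested) and for 9 higher in Jinlan (23.7%, against 41.4%).

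In the opposite direction, Cg8g013740 differed most. Diseased Jinlan held 95.7, 98.9 and 84.0 FPKM and diseased Jinsha 43.5, 37.2 and 41.8 FPKM, close to the 42.1 and 31.0 FPKM of Taoxi controls 2 and 3. The difference was 1.16 ± 0.19 log2 units (SE, limma adjusted p = 0.000623). Diseased Taoxi stood at 11.7, 23.0 and 17.9 FPKM, and Taoxi control 1, at 78.9 FPKM, was nearer to Jinlan than to any other group. Fitted on the Taoxi libraries without the other cultivars, the Taoxi difference missed the threshold (limma adjusted p = 0.0587).

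Cg9g002640 was next, at 26.5, 34.7 and 26.6 FPKM in diseased Jinlan and 10.8, 17.3 and 22.7 FPKM in diseased Jinsha. The cultivars did not overlap, and the difference was 0.80 ± 0.21 log2 units (SE, limma adjusted p = 0.00791). Taoxi controls 2 and 3 were nearly equal, both at 22.6 FPKM, and Taoxi control 1 was at 31.9 FPKM. This ID lay just inside the bound on Jinsha, at -0.40 log2 units from the Taoxi control. Without Taoxi control 2 or 3 its fall within Taoxi missed the threshold (limma adjusted p = 0.0551 and 0.0627). In the 6 members that passed as higher in Jinlan, Jinsha lay within -0.40 to 0.16 log2 units of the Taoxi control.

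The members shared no place in the ID numbering. They carried all 10 ID prefixes of the annotation, with 6 each under Cg4 and Cg9, 5 each under Cg3 and Cg5, 4 under Cg2 and between 1 and 3 under each of the others, or from 0.173% to 0.567% of the IDs of a prefix at 3 FPKM or more in the Taoxi controls. No 2 members had adjacent numbers, and 42 IDs lay between the closest pair, Cg4g020420 and Cg4g020850, named for that reason. Of the 76 IDs next to a member in number order, 34 stood at 3 FPKM or more in the Taoxi controls and 1 of these fell by 0.8 log2 units or more in diseased Taoxi. No member had the same values as another ID in every library.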

How the data were processed

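The values are FPKM as the authors deposited them, in a table for the whole series whose header holds library titles; the sources used here name no aligner, counter, genome build or annotation. A Qiagen column kit gave the RNA and a SMARTer mRNA-seq kit the libraries, per the labels' protocols. Columns were matched to samples by title, and 6 columns that match no labelled sample were not used; their titles begin like those of the Jinlan and Jinsha libraries (af, jsh) and go on with the CK of the Taoxi control titles. Low values showed no whole-read steps (at most 1.81% of IDs shared a 0.02-wide bin of the log2 ratio between replicates), so no counting interval is given.

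Tested were the 17362 IDs with at least 1 FPKM in 3 or more of 11 libraries, all 38 members among them. Group means of log2(FPKM + 1) were fitted without Taoxi control 1, using limma 3.58.1 under R 4.3.3 with a trended prior, two-sided tests and Benjamini-Hochberg adjustment over all IDs tested; an ID passed below 0.05. This scale understates the change of low genes. The model was tested on simulated data. Whether the libraries of a group are separate fruits or trees is not labelled, so the p-values cover a spread that may be technical.

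The members, settings and rule for naming IDs (largest falls, highest levels, largest differences between Jinlan and Jinsha, highest in both cultivars, nearest to the threshold) were chosen with earlier results of these data known. Gene lists could not be filled without gene descriptions. Alternatives were pseudocounts of 0.1 and 0.5, other filters and scalings, TPM, other sets of libraries, a replicate block, a robust prior, a fold threshold and other thresholds of the rule. Figures were drawn with matplotlib 3.10.9.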

Additional observations from a re-analysis of the deposited data

How the results depend on the processing

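The number of members rested on the threshold and on Taoxi control 1. It was 91 with a fall of 0.6 log2 units, 16 with a fall of 1.0, and 356 (32 of them among the 38) with all 3 Taoxi controls in the control mean. Leaving out any 1 of the 11 libraries gave 37 to 47 members, with 26 to 38 of the 38 among them. Pseudocounts of 0.1 and 0.5 gave 53 and 45. Members lower in Jinlan than in Jinsha numbered 8 with all 12 libraries, 5 where a difference of 1 log2 unit was required and 11 to 17 with a library left out. Members higher in Jinlan numbered 1 with that fold and 4 to 8 with a library left out. Members lower in diseased Taoxi numbered 20 with that fold and 29 to 38 with a library left out. Same-numbered replicates of different groups did not deviate together (correlations of -0.21 to 0.02 over 9 pairs), and the replicate block gave 14 members lower and 4 higher in Jinlan and 37 lower in diseased Taoxi. For the named members whose differences were refitted, no sign changed in any setting run. The other members were not followed singly. Over all IDs tested, the balance between the cultivars did turn. In the main fit 5815 IDs passed as higher in Jinlan and 2777 as lower. Median-ratio scaling left 3723 as higher and 3912 as lower. The median Taoxi difference over all IDs moved from 0.04 to -0.004 log2 units with all 12 libraries.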

Other observations

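The rule was limited to Cg IDs. Of the 2740 IDs named NewGene in the table, 2 met the same thresholds. NewGene_848 was at 10.4 FPKM in Taoxi control 2 and 7.12 FPKM in Taoxi control 3, at 3.71, 4.16 and 3.70 FPKM in diseased Taoxi, at 6.09, 9.05 and 6.95 FPKM in diseased Jinlan and at 12, 15.8 and 21.1 FPKM in diseased Jinsha. NewGene_691 stood at 3.76 and 5.34 FPKM in the controls, at 1.57, 2.03 and 2.11 FPKM in diseased Taoxi, at 1.87, 3.84 and 4.08 FPKM in diseased Jinlan and at 5.56, 5.52 and 6.42 FPKM in diseased Jinsha. In both, Jinsha was the highest of the diseased groups, and a Jinlan library of NewGene_691 lay within the range of diseased Taoxi. Taoxi control 1 held them at 18.4 and 4.72 FPKM.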
